A study of Mus musculus with 4 samples.

Results

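The genes described here are 10 genes of the oxidant and metal response: Nfe2l2, which encodes Nrf2, its inhibitor Keap1, 6 targets of Nrf2 (Nqo1, Hmox1, Gclc, Gclm, Srxn1 and Txnrd1) and the metallothionein genes Mt1 and Mt2. They were chosen by name from the 24054 genes of the count tables, with earlier results of these data known. Their RNA was compared between mouse embryonic stem (ES) cells with an intact Morc3 gene and knock-out cells in which Morc3, a nuclear ATPase of the MORC family that silences endogenous retroviruses, had been put back. The wild-type group was 1 library from the feeder-independent ES cell line wt26. The rescue group was 3 libraries from the clones T131-3C, T131-3D and T131-3M, called 3C, 3D and 3M below. All 3 clones came from the Morc3 knock-out line KO27-2, itself 1 CRISPR-Cas9 clone of wt26, which had received a Morc3 cDNA on a PiggyBac transposon together with the transposase and had been selected with puromycin. The wild-type cells had neither the deletion, the transposon nor the selection, so that these and the rescue group cannot be told apart here. All groups grew on gelatin in medium with serum, LIF and 2-mercaptoethanol, a thiol reductant. The libraries of the knock-out line itself were not analysed here, and p-values rest on the spread between clones of 1 parent line, with the lone wild-type library assumed to vary like them.

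Nrf2 is a basic leucine zipper transcription factor that is made continuously and destroyed almost as fast, because Keap1 hands it to the Cul3 ubiquitin ligase. Oxidants and electrophiles modify cysteines of Keap1, Nrf2 then accumulates, pairs with a small Maf protein and switches on genes that carry an antioxidant response element (ARE). Metallothioneins are small cysteine-rich proteins that hold zinc and copper and also react with oxidants, and the zinc sensor Mtf1 drives their genes through metal response elements (MREs). Together these systems govern glutathione synthesis, thioredoxin reduction, heme breakdown and free zinc.

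The libraries held 18789457 read pairs assigned to genes in wild type and 13620914 to 15479190 in the clones. The share of read pairs that fell on genes was 52.7% for wild type and 45.1% to 47.0% for the clones, while unmapped pairs took 14.5% and 20.96% to 23.0%, and the part of these shares in the differences below was not tested. Morc3 had 161 CPM (counts scaled to a common library size) in wild type, and 655, 497 and 609 CPM in 3C, 3D and 3M (587 ± 81.5, SD, n = 3; adjusted p = 0.11), so it was detected in every library and higher in 3 of 3 clones. All 10 ES cell markers were present in every library, between 152 and 1655 CPM each. Among markers of other cells, 6 primitive endoderm genes summed to little, 3.92 to 6.53 CPM, as did 6 mesoderm genes, 4.30 to 10.2 CPM. The 6 neural genes summed to 115 CPM in wild type and 81.5 to 113 CPM in the clones, most of it Tubb3 and Nes. The 7 fibroblast genes summed to 20.4 to 45.0 CPM, most of it Thy1, with Col3a1, Dcn and Lum at 0 counts throughout. The 3 clones differed from each other and from wild type by more than sampling noise, so none was a copy of another. Genes of chromosome 14 sat higher in all 3 clones (median difference in log2 CPM 0.34 to 0.35) and in 3C and 3M, though not in 3D, so did those of chromosome 13 (0.48 in both). None of the 10 genes lies there, and on their chromosomes the medians stayed within 0.03 of 0.

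All 10 genes were expressed, with 183 to 6520 counts per library, and all passed the filter on low counts. None differed between the rescue clones and wild type in edgeR's quasi-likelihood test at an adjusted p of 0.01, the threshold of the study. Over all 13267 genes tested, 1 was called (0.00754%), a number that was 420 without 3D, still with 0 of the 10 genes. At an unadjusted p under 0.05 there was 1 of the 10 genes (Txnrd1), beside 1373 of all genes (10.3%). DESeq2, limma-voom and the older edgeR method also called 0 of the 10. The mean of the clones lay between 82.4% of wild type (Txnrd1) and 118% (Keap1), and the 95% intervals of all 10 genes ran from 72.0% to 150% of wild type. For 9 of the 10 the interval held no change, and for Txnrd1 it lay wholly below wild type. The median log2 fold change of the 10 genes was -0.05, against 0.01 for all genes tested.

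**Figure D1:**
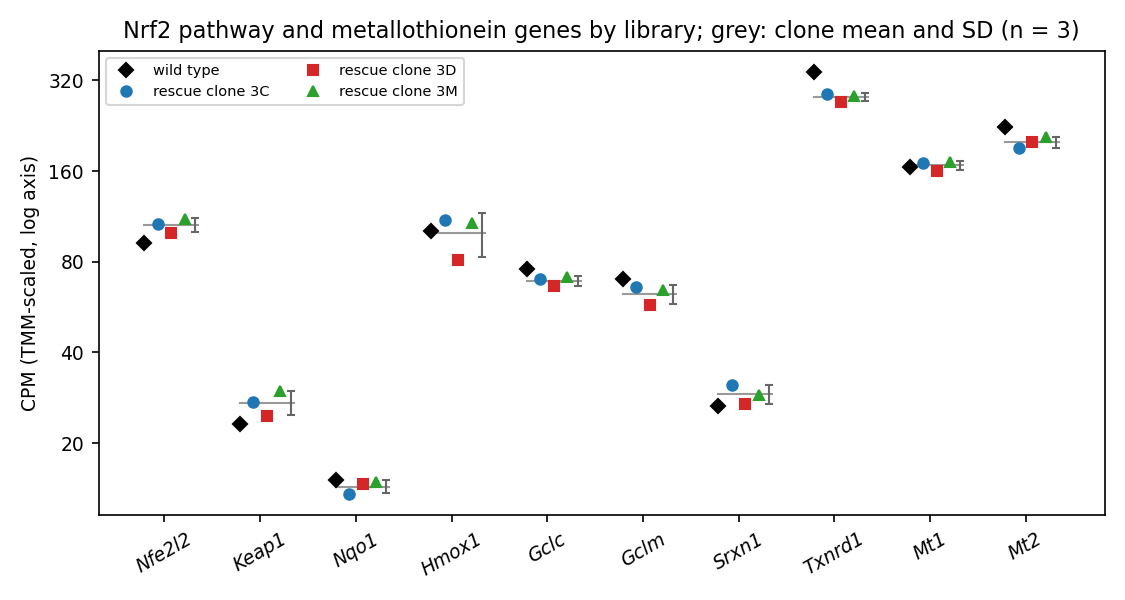
Level of each of the 10 genes in every library, in CPM on a log axis, with wild type (wt26) and the 3 rescue clones marked apart, genes ordered as regulators, targets and metallothioneins, and the clone mean with its SD (n = 3) in grey. The libraries of a gene lie close together throughout, with the widest spread among clones for Hmox1 (80.8 to 110 CPM) and wild type clear of all clones for Txnrd1 (342 against 272 to 288 CPM).

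The promoters were searched for the core letters of both elements. RefSeq promoter windows (GRCm38.p6, the assembly behind mm10) run from 250 bases before a transcript start to 50 bases after it, and 8 of the 10 genes had one. Hmox1 and Gclc had none, and Txnrd1 had 3. On either strand, the ARE core TGACNNNGC was found in 12.4% of all 32851 promoter windows, and an MRE core, TGCACNC or TGCGCNC, in 25.7%. Keap1, Nqo1 and Mt1 held no ARE core in this window, and neither did the first and the third window of Txnrd1. The only Mt1 window ends at chr8:94179138, inside the gene, and bases beyond it were not searched. Counts of cores in Mt1 and Mt2 thus depend on where their windows lie. The 5 windows with a match are shown with 10 bases on each side, 5′ to 3′ in the direction of transcription, with the core in capitals in either orientation.
Nfe2l2: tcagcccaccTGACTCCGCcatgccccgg
Gclm: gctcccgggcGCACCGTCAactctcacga
Srxn1: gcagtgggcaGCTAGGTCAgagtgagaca
Txnrd1: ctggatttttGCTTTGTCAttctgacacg
Mt2: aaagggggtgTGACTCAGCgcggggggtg

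These stretches lie at chr2:75704885-75704913 for Nfe2l2, chr3:122245413-122245441 for Gclm, chr2:152105542-152105570 for Srxn1, chr10:82859104-82859132 for the second Txnrd1 window and chr8:94172529-94172557 for Mt2. The core begins 240, 134, 92 and 79 bases before the RefSeq transcript start in Nfe2l2, Gclm, Txnrd1 and Mt2, and at base 29 counted from that start in Srxn1. That of Gclm overlaps an MRE core. At least 3 MRE cores, found in 1.97% of all windows, were present in Mt1 (3), Mt2 (4) and Gclm (3), and Srxn1 had 1. The 250 bases before the RefSeq transcript start of each metallothionein gene, at chr8:94178839-94179088 for Mt1 and chr8:94172368-94172617 for Mt2, are printed with MRE cores of either orientation in capitals, since these are the elements through which Mtf1 is known to act. For Mt1 this start lies inside the full span of the gene given below, so most of its stretch does too.
Mt1: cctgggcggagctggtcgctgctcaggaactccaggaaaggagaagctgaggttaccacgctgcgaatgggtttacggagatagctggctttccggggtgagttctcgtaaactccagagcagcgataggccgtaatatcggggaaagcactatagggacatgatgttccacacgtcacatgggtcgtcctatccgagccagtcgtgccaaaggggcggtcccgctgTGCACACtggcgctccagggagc
Mt2: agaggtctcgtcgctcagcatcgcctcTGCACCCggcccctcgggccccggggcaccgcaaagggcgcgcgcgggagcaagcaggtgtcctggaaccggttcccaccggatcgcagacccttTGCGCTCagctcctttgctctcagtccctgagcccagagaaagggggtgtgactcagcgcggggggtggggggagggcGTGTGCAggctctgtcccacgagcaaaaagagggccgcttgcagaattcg

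The remaining MRE cores of the pair begin after the RefSeq transcript start of the window and are shown with 10 bases on each side. They are named by the base, counted from that start, at which the core begins. Which start these cells used was not tested, so a place inside the RNA is not shown.
Mt1, base 3: cagggagctcTGCACTCcgcccgaaaa
Mt1, base 21: gcccgaaaagTGCGCTCggctctgcca
Mt2, base 5: aattcgggtcGTGCGCAggcccagggg

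These lie at chr8:94179081-94179107, chr8:94179099-94179125 and chr8:94172612-94172638. A match describes the letters only, and no binding was measured at these windows here.

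In direction the 10 genes were mixed. All 3 clones lay below wild type for 5 genes (Nqo1, Gclc, Gclm, Txnrd1 and Mt2), where 28.4% of all genes tested did so, and above it for 3 (Nfe2l2, Keap1 and Srxn1), where 28.7% did so. Hmox1 and Mt1 had clones on both sides, and without 3D both joined the genes above wild type, which made 5. Among the clones, 3D had the lowest value for 8 of the 10 genes, all but Nqo1 and Mt2, where 3C was lowest, and 3M had it for none. Over all genes tested 3D was the lowest clone in 36.4%. The median difference in log2 CPM from wild type over the 10 genes was -0.10 in 3D, -0.02 in 3C and 0.02 in 3M.

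The regulators were both higher in every clone than in wild type, by less than the test could separate. Nfe2l2 (chr2:75675513-75704663, reverse strand, 5 exons) had 92.6 CPM in wild type and 107, 99.99 and 111 CPM in 3C, 3D and 3M. The clones all lay above wild type, with 3D nearest to it. Their mean was 106 ± 5.71 CPM (SD, n = 3), a log2 fold change of 0.20 ± 0.09 (SE; adjusted p = 0.53), and the interval ran from 98.1% to 134% of wild type. Keap1 (chr9:21229730-21239332, reverse strand), the cysteine-bearing adaptor that holds Nrf2 down, had 23.2 CPM in wild type and 27.4, 24.7 and 29.8 CPM in the clones. Here too 3D was the clone closest to wild type and 3M the farthest. The log2 fold change was 0.24 ± 0.14 (SE; adjusted p = 0.61), with an interval from 92.3% to 150% of wild type. An antisense gene overlaps Keap1 in the GENCODE annotation. Counts on the strand opposite to Keap1 were 10 to 15 per library, 3.00% of those on its own strand, and the directional libraries keep the strands apart. Per base of transcript the Nfe2l2 mRNA was present at 5.83 times the Keap1 mRNA in wild type and at 5.70, 5.92 and 5.46 times in 3C, 3D and 3M (5.69 ± 0.227, SD, n = 3), so the wild-type value lay inside the range of the clones.

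Glutathione synthesis begins with glutamate-cysteine ligase, whose catalytic subunit is Gclc and whose modifier subunit is Gclm. Gclc (chr9:77754535-77794489, forward strand, 16 exons) had 75.6 CPM in wild type and 70.2, 66.3 and 71.2 CPM in 3C, 3D and 3M. Gclm (chr3:122245487-122267215, forward strand) had 70.3 CPM in wild type and 65.9, 57.5 and 64.4 CPM in the clones. All clones lay below wild type for both subunits, and 3D was the lowest for both. The log2 fold changes were -0.13 ± 0.08 for Gclc (SE; adjusted p = 0.64) and -0.17 ± 0.10 for Gclm (SE; adjusted p = 0.62), with intervals from 79.1% to 106% and from 74.4% to 107% of wild type. Per base of transcript Gclc stood at 1.76 times Gclm in wild type and at 1.74, 1.88 and 1.80 times in the clones (1.81 ± 0.0716, SD, n = 3), and the wild-type value lay inside the range of the clones.

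Txnrd1, the cytosolic selenoprotein that reduces thioredoxin, showed the largest difference of the 10 genes. It (chr10:82833951-82897724, forward strand, 14 exons) had 342 CPM in wild type, from 6520 counts, and 288, 272 and 285 CPM in 3C, 3D and 3M, from 3880, 3953 and 4420 counts. The clones lay close together and well below wild type. Their mean was 282 ± 8.69 CPM (SD, n = 3), which was 82.4% of wild type with an interval from 73.6% to 92.2%. The log2 fold change was -0.28 ± 0.07 (SE), with an unadjusted p of 0.00595 and an adjusted p of 0.27 by edgeR over 13267 genes. A change of this size or smaller was found for 83.4% of the 8545 tested genes with a mean of at least 10 CPM. Without 3D the log2 fold change was -0.26, and without 3M it was -0.29, still short of the threshold in both. The genes whose 3 clone differences in log2 CPM lay nearest to those of Txnrd1, among 8544 others of at least 10 CPM, were Spire1 (Euclidean distance 0.0275), Arhgap19 (0.0404), Adap1 (0.0415), Wasf1 (0.0439) and Taok3 (0.0441), measured over the same 4 libraries.

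Srxn1, sulfiredoxin, which repairs over-oxidised peroxiredoxins (chr2:152105524-152111376, forward strand), had 26.5 CPM in wild type and 31.3, 26.9 and 29.0 CPM in 3C, 3D and 3M. It was the only target of the 6 with all clones above wild type, although 3D differed from wild type by less than the counting error (102%, interval 88.8% to 116%). The log2 fold change was 0.13 ± 0.13 (SE; adjusted p = 0.75), with an interval of the group difference from 88.2% to 136%. Nqo1, the quinone reductase most often used as a readout of Nrf2 (chr8:107388225-107403205, reverse strand), had 15.05 CPM in wild type and 13.6, 14.6 and 14.8 CPM in the clones. With 183 to 287 counts it was the least counted of the 10, and each clone was within counting error of wild type. Its log2 fold change was -0.07 ± 0.14 (SE; adjusted p = 0.90), so a level from 75.2% to 121% of wild type lay within the interval.

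Hmox1, the enzyme that opens the heme ring, differed more among the clones than between the groups. This gene (chr8:75093618-75100593, forward strand) had 101 CPM in wild type and 110, 80.8 and 108 CPM in 3C, 3D and 3M. Wild type lay inside the range of the clones, with 3C and 3M above it and 3D below. In 3D the level was 79.8% of wild type (74.2% to 85.9%, counting error only), and in 3C and 3M it was 109% and 106%. The coefficient of variation among the clones was 16.4%, the largest of the 10 genes, where counting error alone gives 2.63% and the median of the 10 genes was 5.07%. The log2 fold change was -0.02 ± 0.18 (SE; adjusted p = 0.98), and without 3D it was 0.11. Clone 3D also had the highest share of unmapped pairs, 23.0% against 21.8% in 3C and 20.96% in 3M, and the part of this in the Hmox1 value was not tested.

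**Figure D2:**
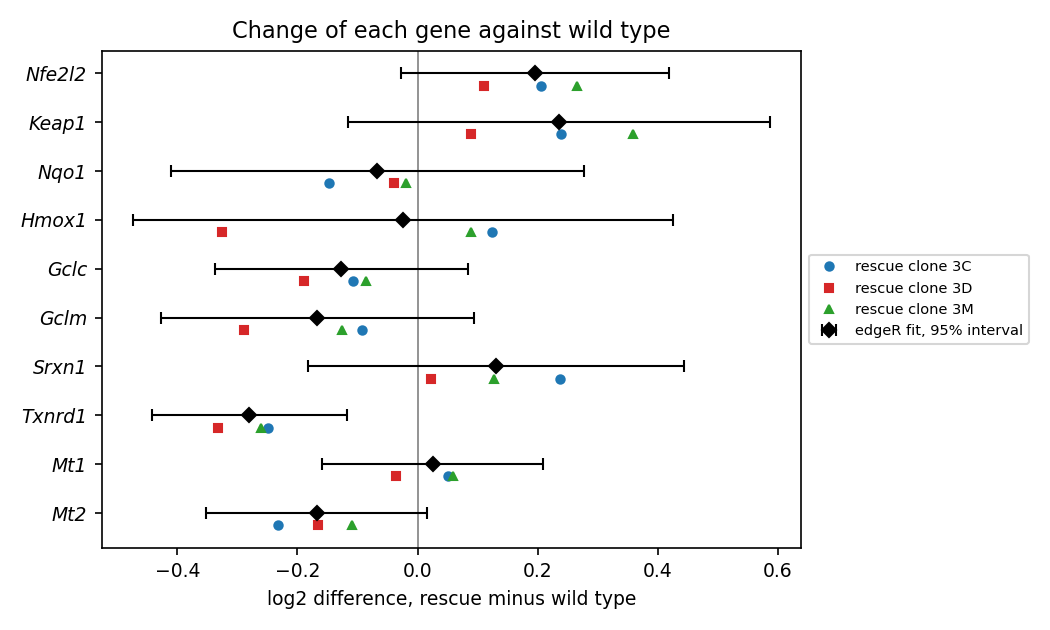
Log2 fold change of each gene, rescue clones against wild type, with its 95% interval from edgeR, and the difference in log2 CPM of each clone as a point. Only the interval of Txnrd1 (-0.44 to -0.12) leaves out 0, and the widest split between clones is that of Hmox1, where 3D lies at -0.32.

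Per length of transcript the metallothionein genes were the most abundant of the set. Mt1 (chr8:94178883-94180327) and Mt2 (chr8:94172618-94173567) lie side by side on the forward strand of chromosome 8. Mt1 had 165 CPM in wild type and 170, 161 and 171 CPM in 3C, 3D and 3M. The clones lay on both sides of wild type within a narrow range, and the log2 fold change was 0.03 ± 0.07 (SE; adjusted p = 0.93), with an interval from 89.6% to 116% of wild type. Mt2 had 224 CPM in wild type and 191, 200.1 and 208 CPM in the clones. All clones lay below wild type, with a log2 fold change of -0.17 ± 0.07 (SE; adjusted p = 0.51) and an interval from 78.3% to 101%. An antisense gene in GENCODE overlaps Mt2, with opposite-strand counts at 0.162% of its own.

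Because the neighbours are counted in the same library, their proportion does not depend on the scaling. Wild type had 1.36 Mt2 counts for each Mt1 count (95% exact interval 1.30 to 1.43, counting error only). The clones had 1.12 (1.06 to 1.19) in 3C, 1.25 (1.18 to 1.32) in 3D and 1.21 (1.15 to 1.28) in 3M. The proportion was lower in 3 of 3 clones (1.19 ± 0.0653, SD, n = 3), at 0.875 times wild type, and the counting intervals of 3C and 3M lay apart from that of wild type while that of 3D overlapped it. An exact two-sided permutation test of the log proportion gave p = 0.25, the smallest that 1 library against 3 allows, so it cannot pass 0.05. The proportion was chosen after the values had been seen.

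Mt3 and Mt4 complete the cluster on the upstream side. Mt3 (chr8:94152607-94154148), the metallothionein best known from brain, was read by 104 counts in the wild-type library, against 33, 31 and 28 in 3C, 3D and 3M, or 5.45 CPM against 2.45, 2.13 and 1.81 CPM. Every clone lay below 50% of the wild-type level. The log2 fold change was -1.36 ± 0.26 (SE), the largest of the cluster, with an interval from -1.998 to -0.73 and an adjusted p of 0.21 by edgeR, which did not pass the threshold. The log2 fold change was -1.37 without 3D and -1.25 without 3M, short of the threshold in both. Of the 3 neural markers tested, Tubb3 was also lower in all clones, at 40.5 to 49.3 CPM against 73.8, while Nes (log2 fold change 0.32) and Sox1 (0.20) had clones on both sides of wild type. The part of such cells in the Mt3 value was not tested. Mt4 had only 5 to 13 counts in any library.

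**Figure D3:**
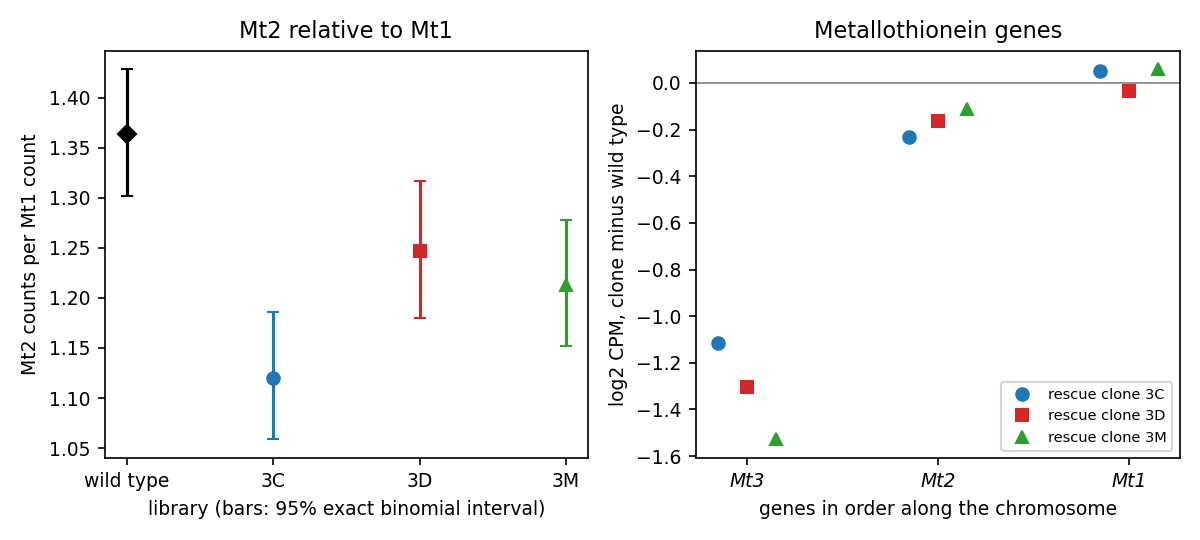
Left, Mt2 counts for each Mt1 count in each library, with exact 95% counting intervals as bars and an axis that does not start at 0. Right, difference in log2 CPM of each clone from wild type for Mt3, Mt2 and Mt1 in chromosome order. Mt2 and Mt3 are lower in all 3 clones, Mt1 lies on both sides of wild type, and the Mt2 to Mt1 proportion is 1.36 in wild type against 1.12 to 1.25.

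Across genes, levels can be compared only per length, here as CPM per kilobase of the principal transcript averaged over the 4 libraries. Mt2 (403) and Mt1 (304) stood at the 99.3rd and 99.0th percentile of the 12653 tested genes with a length. Below them came Txnrd1 (84.0), Hmox1 (63.7) and Nfe2l2 (41.5), then Gclc (20.7), Gclm (11.5), Srxn1 (10.1), Nqo1 (9.35) and Keap1 (7.26), the last of them at the 49.5th percentile. This order, like the ratios per base given above, rests on the length of the principal transcript, and which transcripts these cells made was not tested. At these lengths, the ranges over libraries of neighbours in the order overlapped only for Gclm and Srxn1 and for Srxn1 and Nqo1. The classical target Nqo1 was thus among the lowest of the set, and Txnrd1 and Hmox1 among the highest, in wild type and clones alike.

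The lists around the pathway held no calls either. Of all 13267 genes tested only 1 was called (0.00754%), so the absence of calls does not set these lists apart. Of 10 other regulators of Nrf2, all tested, 0 were called, and the median log2 fold change was 0.00156. All clones lay above wild type for 2 of them (20%) and below for 2 (20%), against 28.7% and 28.4% of all genes tested. Those above were the autophagy receptor Sqstm1 (0.08), which binds Keap1, and the ligase scaffold Cul3 (0.07). Those below were the relative of Nrf2 Nfe2l1 (-0.09) and the repressor Bach1 (-0.05), which competes for the same elements. Adjusted p-values by edgeR ran from 0.69 to 0.89 for these 4 genes.

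Of 36 other Nrf2 targets 29 were tested and 0 were called, beside 0.00754% of all genes tested. The median log2 fold change was -0.01. All clones lay above wild type for 9 (31.0%) and below for 11 (37.9%), against 28.7% and 28.4% of all genes tested. Among these, the largest differences on the upper side were those of the carbonyl reductase Cbr3 (0.90 ± 0.40, SE), the epoxide hydrolase Ephx1 (0.59 ± 0.26) and transketolase, Tkt (0.42 ± 0.06), an enzyme of the pentose phosphate pathway. Tkt was the best measured of them, with 555 CPM in wild type and 762, 744 and 719 CPM in the clones. Its adjusted p was 0.19, and 0.00209 without 3D, a setting in which 3.17% of all genes passed the threshold, and it lies on chromosome 14, where the median of all genes was higher in the clones. The largest on the lower side, again with all clones below wild type, were those of Slc7a11, the cystine importer (-1.51 ± 0.68), the glutathione transferase Gstm3 (-0.63 ± 0.47) and biliverdin reductase, Blvrb (-0.39 ± 0.23). Slc7a11 was close to absent: wild type held 14 counts of it and 3C, 3D and 3M held 1, 4 and 6. The medium held 2-mercaptoethanol in every group, and its part in this level was not tested. At an unadjusted p under 0.05 there were Tkt, higher in the clones, and the transporter Abcc1, lower, beside 10.3% of all genes tested. The 7 targets left untested for low counts were Gsta1, Gsta2, Mgst1, Ugt1a6a, Abcc2, Abcc3 and Osgin1, each with at most 9 counts in any library.

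Of 27 further antioxidant enzymes 26 were tested and 0 were called, beside 0.00754% of all genes tested. The median log2 fold change was -0.03. All clones lay above wild type for 9 (34.6%) and below for 8 (30.8%), against 28.7% and 28.4% of all genes tested. Among those with all clones on 1 side, the glutathione peroxidases Gpx8 (0.71 ± 0.35, SE), Gpx7 (0.58 ± 0.33) and Gpx2 (0.58 ± 0.23) stood highest. The mitochondrial thioredoxin reductase Txnrd2 (-0.60 ± 0.31), the peroxiredoxin Prdx6 (-0.31 ± 0.14) and the glutaredoxin Glrx3 (-0.29 ± 0.28) stood lowest. Txnrd2 had 5.09 CPM in wild type and 2.97, 2.68 and 4.32 CPM in the clones (adjusted p = 0.56). The third thioredoxin reductase, Txnrd3, had a log2 fold change in the other direction (0.37, adjusted p = 0.55), and none of the 3 passed the test. Of these 6 genes Gpx8 lies on chromosome 13. At an unadjusted p under 0.05 there were Sod2, Gpx2 and Gpx4, higher in the clones, beside 10.3% of all genes tested.

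Of 39 genes of metal handling, Mt3 and Mt4 among them, 34 were tested and 0 were called, beside 0.00754% of all genes tested. The median log2 fold change was 0.03. All clones lay above wild type for 11 (32.4%) and below for 7 (20.6%), against 28.7% and 28.4% of all genes tested. Among those with all clones on 1 side, the copper pump Atp7b (0.46 ± 0.17, SE), the zinc importer Slc39a3 (0.43 ± 0.22) and the zinc exporter Slc30a4 (0.43 ± 0.21) stood highest. Slc30a10 (-2.14 ± 0.65), a manganese exporter, Mt3 (-1.36 ± 0.26) and the copper transporter family member Slc31a2 (-0.28 ± 0.27) stood lowest. Slc30a10 reached only 14 counts in the wild-type library, against 2, 1 and 4 in 3C, 3D and 3M, and its adjusted p was 0.37. At an unadjusted p under 0.05 there were Atp7b and Tfrc, higher in the clones, and Mt3, Slc30a10 and Commd1, lower. Of all genes tested, 10.3% were under it. Without 3D, 1 gene of the list passed the threshold, the zinc transporter Slc30a5 (0.56, adjusted p = 0.00411), which lies on chromosome 13, and 420 of all 13243 genes tested in that setting passed it (3.17%). In the 4 lists, 0, 2, 3 and 2 tested genes lie on chromosomes 13 and 14, and without them the medians were 0.00156, -0.02, -0.05 and -0.01.

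**Figure D4:**
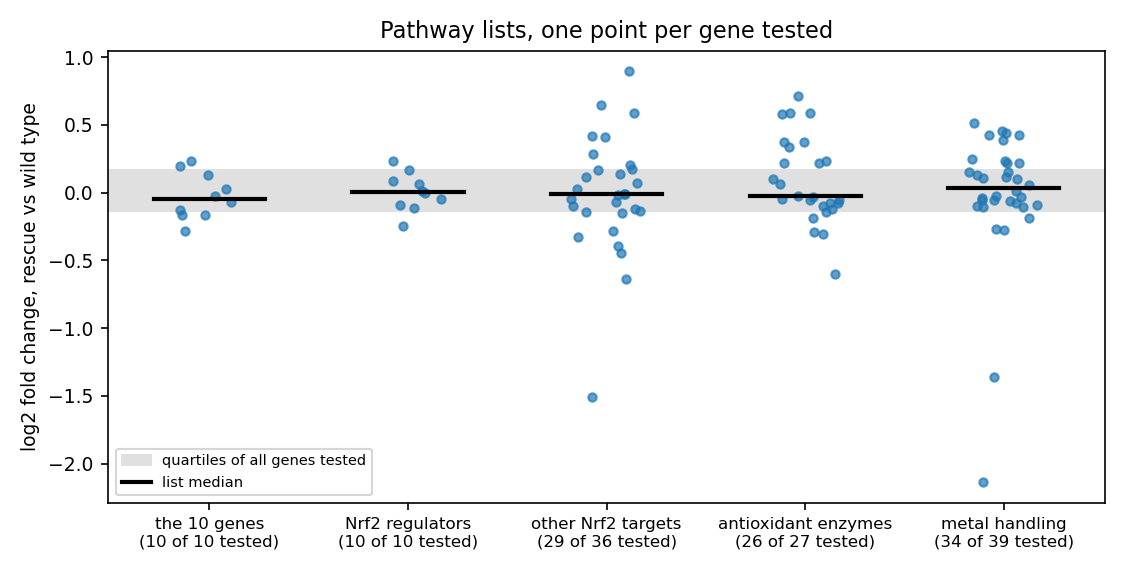
Log2 fold change, rescue clones against wild type, of each tested gene of the 10 described genes and of the 4 lists around them (other Nrf2 regulators, other Nrf2 targets, other antioxidant enzymes, metal handling), with the median of each list as a bar and the quartiles of all genes tested (-0.14 and 0.16) as a grey band. All medians lie between -0.05 and 0.03, and the far points are genes of low counts such as Slc30a10 (-2.14), Slc7a11 (-1.51) and Mt3 (-1.36).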

How the data were processed

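RNA was extracted from ES cell cultures, depleted of ribosomal RNA and sequenced as directional paired-end libraries. The authors aligned reads with STAR to mm10 and deposited its counts of read pairs per gene, as whole, unnormalised numbers for both strands together and for each strand. The STAR version and the annotation are not given in the sources used here. The reverse-strand column was used, since the forward column held 1.26% to 1.31% of its total. The summary lines for unmapped, multimapping, featureless and ambiguous pairs (together 53.0% to 54.9% of all pairs in the clones and 47.3% in wild type) were left out of library sizes. Counts of Rn45s, the ribosomal RNA precursor, stayed in the library sizes, at 15.4% of gene counts in wild type and 14.7% to 16.0% in the clones.

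Genes passing filterByExpr were tested with edgeR 4.0.16 (quasi-likelihood, TMM scaling, Benjamini-Hochberg adjustment over 13267 genes, adjusted p of 0.01) in R 4.3.3, with DESeq2 1.42.0 and limma 3.58.1 as alternatives. CPM are TMM-scaled. Standard errors are the log2 fold change over the root of the F statistic, and intervals are at 95%. Differences of single clones used a prior count of 2. Shares and proportions from counts carry counting error only. Positions and promoters came from RefSeq GRCm38.p6 and lengths from GENCODE on GRCm38. Scripts were tested on simulated data.

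The 10 genes and the lists around them were chosen with earlier results of these data known, so no list is independent evidence. From each list the text names the genes past the threshold and up to 3 with the largest log2 fold change in each direction among those with all clones on 1 side of wild type, and the 5 genes nearest in pattern to the most changed of the 10. The genes at an unadjusted p under 0.05, the Mt2 to Mt1 proportion, the direction counts, Slc30a5 and Tubb3 were chosen after values were seen.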

Additional observations from a re-analysis of the deposited data

How the results depend on the processing

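Of 284 values recomputed under the alternatives (count column, scaling, low-count filter, test, clones left out in turn, genes of chromosomes 13 and 14 left out), 266 stayed on the same side of the threshold or, for values with no test and counts, within the clones' SD or 1.5 times, 17 moved and 1 single-gene fold change reversed. List medians close to 0 changed sign within these bounds: that of other Nrf2 regulators (0.00156) was -0.000907 with no filter and -0.00137 with the stricter one and ran from -0.0266 to 0.0392 with a clone left out, and that of other Nrf2 targets (-0.00965) ran from -0.0273 to 0.0290. The 10 genes had 0 calls under each of them, also at an adjusted p of 0.05 in the edgeR fit of all libraries. Hmox1, at -0.02, reversed to 0.11 without 3D and ran from -0.10 to 0.11 with each clone left out. The count of all genes called, 1 in the edgeR fit, was 0 with at least 10 counts in every library, 0 by limma-voom, 0 by the older edgeR method and 64 by DESeq2, and ran from 0 (without 3M) to 420 (without 3D). Calls ran from 0 to 1 with a clone left out among other Nrf2 targets (Tkt, without 3D) and among metal handling genes (Slc30a5, log2 fold change 0.56, adjusted p = 0.00411, without 3D). The antioxidant enzyme median ran from -0.0273 to 0.0317 with a clone left out and was -0.0465 without chromosomes 13 and 14. The metal handling median was 0.0156 unstranded, 0.0768 with no filter, 0.0118 with the stricter filter, 0.0797 by DESeq2 and -0.00556 without chromosomes 13 and 14, and ran from 0.0098 to 0.0386 with a clone left out. Genes of the 10 with all remaining clones above wild type ran from 3 to 5 with a clone left out and were 2 under library size alone. For Txnrd1 the log2 fold change stayed negative under each alternative run. The causes of these shifts were not tested, and the counts of direction, the Mt2 proportion and Mt3 were added after seeing the data.

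No paired analysis was possible because wild type had 1 library, so that the groups share fewer than 2 replicate numbers. With that lone library, culture, clone and rescue cannot be told apart, and intervals as wide as 72.0% to 150% of wild type leave modest differences undetected. Larger differences were not called either, such as those of Morc3 (log2 fold change 1.87) and Mt3 (-1.36). Poly(A) selection was not used, and protein, glutathione and Nrf2 activity were not measured.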
